A study of Populus trichocarpa
Populus deltoides with 74 samples.

Results

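The oligos described here differed between basal and upper shoot tips of poplar and differed by less than a set limit between vegetative buds and shoot tips. They are 52 of the 217 oligos of a poplar array, and all 52 carry only a clone name or accession, as do 183 oligos of the table. They were chosen by 2 measured differences of quantile-normalized log2 intensity. The basal difference was the mean of the 4 groups of basal shoot tips minus the mean of the upper tips of ages 5 and 6 years in May and June, and its size had to be 0.4 or more. The bud difference was the mean of the 4 groups of vegetative buds not labelled male minus the mean of the 12 groups of shoot tips, and its size had to be under 0.8. Of the 183 clone oligos, 140 met the limit on the bud difference and 77 the limit on the basal difference. Both limits were met by 52, of which 34 were higher in basal tips and 18 were higher in upper tips. The same bud limit left out 24 clone oligos that were higher in vegetative buds and 19 that were higher in shoot tips.

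A shoot tip holds the apical meristem with the youngest leaves, and a bud holds a preformed shoot or flower under scales. Forest trees pass through a juvenile phase before they flower, and tissue near the base of a tree is commonly held to keep juvenile traits longer than the upper crown, so that position and age are both used to study maturation. In bulk tissue of this kind, fewer cells of a type and less RNA per cell cannot be told apart.

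All trees were wild type, and both Populus trichocarpa and Populus deltoides were named as the organism. The shoot tips came from female trees, as basal tips of ages 5 and 6 and as tips not labelled basal, called upper here, of ages 1, 2, 5 and 6, each in May and in June. The buds were floral and lateral vegetative buds of age 6, both from male trees and from trees of unstated sex, and lateral vegetative buds of unstated sex of ages 1, 2 and 5. RNA was isolated 2 times per group, but 1 time for the June upper tips of age 5, so that 19 groups gave 37 isolations and 74 arrays. The sources call the isolations biological replicates but do not say that they came from separate trees, so the p-values measure the spread between isolations, which may be technical. What the basal tips were basal to is not stated. No gene, function or chromosome position came with the clone names, and 0 of the 217 IDs matched the reference gene table, so the oligos are given by clone name, and no role can be given to them.

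Floral buds were checked against 6 flower genes. For PTAG1, PTAG2, PTD, PTAP1-1B, PTAP1-2A and PTLF, the lowest floral isolation lay above the highest vegetative isolation of age 6, as for PTAG1 with 9.46 to 11.23 in floral buds and 4.49 to 5.98 in vegetative buds. No defining markers of shoot tips or vegetative buds were used, so those labels were not checked. Over all oligos, 6 of the 36 isolations with a partner in their group correlated best with an isolation of another group. Among them, isolation b of the May upper tips of age 2 correlated best with the May upper tips of age 5, and isolation b of age 5 with those of age 2. By how their duplicate wells differed, the isolations were divided into 5 groups, a number that was a setting and not a finding. The term hybridisation set is used below for such a group. Plates and dates are missing from the sample labels, so whether the groups were real batches was not tested. All floral and male buds fell in 1 set with isolation b of the vegetative buds of age 6, and the other vegetative buds fell in another with 3 of the 4 June basal isolations. The upper June tips of ages 2, 5 and 6 shared a set with 3 of the 4 May basal isolations and 1 June basal isolation. The upper June tips of age 1 formed a set alone, and all upper May tips shared a set with the remaining May basal isolation. Position, month and set are therefore partly confounded.

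The basal difference and the bud difference chose the oligos and are given as a description. Among the 34 oligos higher in basal tips, the basal difference ran between 0.40 and 1.76 with a median of 0.65, and its standard error (SE) was 0.084 to 0.387. Their bud differences were balanced, with 17 above 0, 17 below 0 and a median of -0.00197. Among the 18 oligos higher in upper tips, the basal difference ran between -2.64 and -0.41 with a median of -0.89 and an SE of 0.098 to 0.298. Of these 18, 16 had a bud difference below 0, with a median of -0.47 over the 18. The shoot tip mean in the bud difference held more upper than basal groups. The choice of these oligos can therefore contribute to their bud differences below 0, and nothing is read from that count. At the limits of the rule, R59E12 was just inside with a basal difference of 0.40, and M111B12 was just outside with 0.397. UM83TC03, at -0.41, was the last oligo taken on the upper side, and V056C05, at -0.396, the first left out. V002G11 was taken with a bud difference of 0.78 and F106P90Y left out with 0.82, and V063C08 was taken with -0.79 and V021F11 left out with -0.81.

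The 2 largest basal differences in either direction show how the levels lay. V017G04 had 7.88 to 8.75 with a median of 8.16 in the 8 basal isolations, against 9.60 to 11.69 with a median of 11.12 in the 7 upper isolations of ages 5 and 6. The basal and upper isolations did not overlap, and the difference of means was -2.64 ± 0.13 (SE). UM42TF11 had 7.14 to 7.77 with a median of 7.45 in basal isolations, against 8.35 to 10.40 with a median of 10.23 in upper isolations, again without overlap, and a difference of -2.34 ± 0.14 (SE). In both of these oligos the 2 May upper isolations of age 6 were the lowest of the upper ones, at 9.60 and 9.71 for V017G04 and at 8.35 and 8.70 for UM42TF11.

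UM43TE12 had 9.66 to 11.33 with a median of 10.11 in the basal isolations, against 7.70 to 10.47 with a median of 8.02 in the upper isolations, and a difference of 1.76 ± 0.12 (SE). The overlap came from the May upper tips of age 6, at 10.47 and 10.46, while the other 5 upper isolations lay between 7.70 and 8.42. UM93TD04 had 8.24 to 10.86 with a median of 9.34 in basal isolations, against 7.18 to 8.53 with a median of 8.23 in upper isolations, and a difference of 1.49 ± 0.19 (SE). Its ranges overlapped through 1 basal isolation, the May tips of age 6 at 8.24. Over all 52 oligos, the basal and upper isolations did not overlap for 7, of which 2 were higher in basal and 5 in upper tips. Over all 217 oligos, 5.99% had no overlap, and since the rule used this contrast nothing is read from that count.

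The basal difference was also taken apart into its 4 matched differences, for May and June and ages 5 and 6. Among the oligos higher in basal tips, the median difference was 0.60 in May at age 5, with 31 of 34 oligos higher in basal tips, and 0.24 in May at age 6, with 24 of 34. In June the medians were 0.82 at age 5, with 31 of 34, and 1.03 at age 6, with 32 of 34. Among the oligos higher in upper tips, the medians were -1.55 in May at age 5 and -0.50 in May at age 6, with 16 and 14 of 18 lower in basal tips. In June they were -1.47 at age 5, with 18 of 18 lower, and -1.17 at age 6, with 16 of 18. May at age 6 thus had the smallest median of the 4 in both sets of oligos. Single oligos ran from -1.43 to 1.37 there in the basal-higher set and from -1.38 to 0.81 in the upper-higher set. A single sign in all 4 matched differences was held by 31 of the 52 oligos, 18 higher in basal and 13 higher in upper tips, where 33.6% of all 217 oligos did so, a count to which the choice of the oligos contributes.

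Basal and upper isolations met within 2 of the hybridisation sets. The values within them, and those with the set as a term, are from isolations that chose the oligos, so agreement in sign is largely fixed by the choice, and nothing is read from it about the sets. Within the set that held 4 basal and 3 upper isolations, the difference kept the sign of the full data for 48 of 52 oligos, and its median size toward that side was 0.856. Within the set that held 1 basal and 4 upper isolations it kept the sign for 43 of 52, with a median of 0.776. With the set as a term of the fit, all 52 kept the sign, and the median size was 0.867, against 0.709 without the term, while the median SE was 0.246 against 0.148.

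The upper tips of ages 1 and 2 did not enter the basal difference. For the oligos higher in basal tips, the median over oligos of the mean level was 8.99 in basal tips, 8.79 in the upper tips of ages 1 and 2, 8.66 in vegetative buds and 8.24 in the upper tips of ages 5 and 6. For the oligos higher in upper tips, these medians were 7.76 in basal tips, 8.41 in the upper tips of ages 1 and 2, 7.96 in vegetative buds and 8.60 in the upper tips of ages 5 and 6. In these medians the young upper tips and the vegetative buds lay between basal tips and older upper tips in both sets. No test is given, since the basal and older upper tips were chosen to differ. The vegetative buds and all tips, also the young ones, entered the limited bud difference. The middle place is thus partly fixed by the rule, and nothing is read from it. By group, the median of the basal-higher oligos was 8.84 to 9.25 in the 4 basal groups and 8.37 to 8.78 in the 4 vegetative bud groups of unstated sex. That of the upper-higher oligos was 7.49 to 7.83 in the basal groups and 7.72 to 8.12 in those buds. In male vegetative buds the medians were 8.96 for the basal-higher and 7.93 for the upper-higher oligos. Single isolations did not keep this order. The young upper tips of UM43TE12 had 10.16 and 11.05 at age 1 and 9.12 and 9.36 at age 2 in May, and 10.36 and 10.42 at age 1 and 8.57 and 8.91 at age 2 in June, and so overlapped both the basal tips and the older upper tips. V017G04 differed, since its mean was 10.86 in young upper tips and 10.87 in older upper tips, against 8.23 in basal tips and 9.28 in vegetative buds.

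Over the 19 group means, pairs of oligos within the basal-higher set correlated at a median Pearson r of 0.21, and pairs within the upper-higher set at 0.47. Pairs across the 2 sets had a median of -0.28. The groups share hybridisation sets, and the basal and upper tip groups that enter these correlations also chose the oligos, so the values only describe how loosely the oligos moved together.

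Whether the position difference itself depended on month was tested as the basal minus upper difference in June minus that in May, at ages 5 and 6 together. All tests below are limma's two-sided moderated tests over all 217 oligos with Benjamini-Hochberg adjustment, and an adjusted p under 0.05 is a call. The rule weighed the groups of both months equally. The June upper tips of age 5 had only 1 isolation, so its spread can tie the side of an oligo to a direction here. The split by side is therefore only a description. An oligo with a large difference in 1 month could be chosen through that month, so nothing is read from the count either. The position difference was called between the months for 15 of the 52 oligos, 9 upward and 6 downward. Of all oligos 24.4% were called, 13.8% upward and 10.6% downward. Of the oligos higher in basal tips 9 were called upward and 1 downward, and of those higher in upper tips 5 were called downward and 0 upward. With the values as deposited 11 of the 52 were called upward and 8 downward, and the upper-higher set then had 3 upward and 6 downward. The median over the 52 was 0.19, and over all oligos 0.05.

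C036P25U had 10.78, 10.62, 10.76 and 10.41 in June basal tips, against 8.25, 8.12 and 8.73 in June upper tips. In May it had 9.97, 9.68, 10.45 and 10.61 in basal tips, against 9.53, 8.95, 9.90 and 9.91 in upper tips, so basal and upper isolations stood apart in June and overlapped in May. The position difference was 2.30 in June and 0.60 in May, a change of 1.70 ± 0.21 (SE, adjusted p = 1.5e-05, limma). F093P10Y had 8.10, 8.29, 8.26 and 8.12 in June basal tips, against 7.29, 6.88 and 6.45 in June upper tips, and in May its ranges overlapped, with 8.01, 8.11, 7.62 and 7.12 in basal tips against 7.57, 8.02, 7.87 and 7.98 in upper tips. Its position difference was 1.22 in June and -0.15 in May, a change of 1.36 ± 0.35 (SE, adjusted p = 0.00829, limma).

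F098P59Y went the other way, with 6.55, 6.87, 7.38 and 7.62 in June basal tips against 8.997, 8.95 and 9.21 in June upper tips. Its May values were 8.04, 7.27, 6.93 and 6.71 in basal tips and 6.62, 8.34, 5.65 and 6.36 in upper tips, which overlapped. The position difference was -1.94 in June and 0.49 in May, a change of -2.43 ± 0.50 (SE, adjusted p = 0.00129, limma). UM65TE06 had 10.88, 11.40, 10.88 and 10.93 in June basal tips against 12.73, 12.52 and 12.51 in June upper tips. In May it had 11.76, 12.52, 11.83 and 12.10 in basal tips, against 11.74, 11.64, 11.72 and 11.90 in upper tips. The position difference was -1.60 in June and 0.31 in May, a change of -1.90 ± 0.37 (SE, adjusted p = 0.00057, limma). For both oligos basal and upper tips stood apart in the 7 June isolations and overlapped in the 8 May isolations.

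With the hybridisation set as a term only 4 of the 52 oligos were called in this comparison, and F093P10Y (adjusted p = 0.217, limma) and UM65TE06 (adjusted p = 0.056, limma) were lost. With arrays centred on their median the split was 6 upward and 8 downward. Without the single June upper isolation of age 5, the change could be taken at age 6 only, and it was 2.08 for F093P10Y.

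The same was asked of age, as the position difference at age 6 minus that at age 5 over both months. Calls were made for 13 of the 52 oligos, 8 upward and 5 downward. Of all oligos 13.4% were called, 7.37% upward and 5.99% downward. Of the oligos higher in upper tips, 7 were called upward and 0 downward, and of those higher in basal tips 1 was called upward and 5 downward. The single June upper isolation of age 5 also entered the rule, so this split is only a description too. An oligo with a large difference at 1 age could be chosen through that age, so nothing is read from the count. An upward change in an oligo higher in upper tips means a smaller position difference at age 6, as long as the sign holds. The medians were 0.71 over the 18 upper-higher oligos, -0.18 over the 34 basal-higher oligos and 0.00298 over all oligos.

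V012F11 had 6.60, 6.22, 6.56 and 6.86 in basal tips of age 6, against 8.11, 8.42, 7.10 and 7.36 in upper tips of age 6. At age 5 it had 5.70, 4.93, 5.74 and 6.33 in basal tips, against 8.64, 8.82 and 8.63 in upper tips, and basal and upper isolations stayed apart at both ages. The position difference was -1.19 at age 6 and -3.004 at age 5, a change of 1.82 ± 0.35 (SE, adjusted p = 0.000902, limma). R29F11 had 7.50, 7.78, 5.63 and 6.74 in basal tips of age 6, against 5.18, 5.18, 4.68 and 4.94 in upper tips, and at age 5 5.91, 5.53, 6.22 and 5.79 in basal tips, against 6.90, 6.20 and 6.04 in upper tips. Its position difference was 1.92 at age 6 and -0.65 at age 5, a change of 2.56 ± 0.44 (SE, adjusted p = 0.000303, limma), so the sign differed between the ages. Without the single June upper isolation of age 5, at 6.90, the change could be taken in May only. It was then 1.49 with an adjusted p of 0.0823 (limma).

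A003P34U had 7.39, 7.41, 7.32 and 4.04 in basal tips of age 6, against 7.93, 7.45, 7.37 and 6.86 in upper tips of age 6. At age 5 it had 8.89, 8.13, 8.35 and 8.74 in basal tips, against 6.22, 5.43 and 6.91 in upper tips. The position difference was -0.86 at age 6 and 2.33 at age 5, a change of -3.19 ± 0.71 (SE, adjusted p = 0.00354, limma), with 1 May basal isolation of age 6, at 4.04, far below the other 3. UM93TD04 had 8.995, 9.74, 8.86 and 8.24 in basal tips of age 6, against 8.36, 7.80, 8.26 and 8.53 in upper tips of age 6. At age 5 it had 9.31, 9.37, 10.86 and 9.96 in basal tips, against 7.18, 8.23 and 7.91 in upper tips. The position difference was 0.72 at age 6 and 2.25 at age 5, a change of -1.52 ± 0.38 (SE, adjusted p = 0.00792, limma), and its basal and upper isolations overlapped at age 6 and not at age 5.

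Within basal tips, age 6 was set against age 5 over both months. Only 6 of the 52 oligos were called, 3 higher and 3 lower, where 9.22% of all oligos were called, 5.53% higher and 3.69% lower. V031H01 had 4.66, 5.42, 5.22 and 5.44 at age 6, against 5.76, 6.57, 6.23 and 6.82 at age 5, with no overlap and a difference of -1.16 ± 0.24 (SE, adjusted p = 0.00255, limma). For A003P34U the basal isolations given above did not overlap between the ages, and the difference was -1.99 ± 0.48 (SE, adjusted p = 0.00861, limma). Without the isolation at 4.04 it was -1.17, with an adjusted p of 0.0694 (limma).

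R29F11 averaged 6.91 in basal tips of age 6 and 5.86 in basal tips of age 5, a difference of 1.05 ± 0.30 (SE, adjusted p = 0.0212, limma), and V012F11 averaged 6.56 at age 6 and 5.68 at age 5, a difference of 0.88 ± 0.23 (SE, adjusted p = 0.0131, limma). The isolations of both oligos overlapped between the ages. With only the compared groups in the fit, 0 oligos of the 52 were called in this comparison.

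Upper tips of age 6 and age 5 were compared in May, where each age had 2 isolations. This comparison and that of ages 2 and 1 in May were added after the data had been seen. All 8 isolations lay in 1 inferred hybridisation set, so the inferred set does not differ between the ages, while the true plates are unknown. Age 6 differed from age 5 for 25 of the 52 oligos, 12 higher and 13 lower, where 26.7% of all oligos were called, 15.7% higher and 11.1% lower. All 12 called higher were of the basal-higher set, in which 2 were called lower, and of the upper-higher set 11 were called lower and 0 higher. Both age groups entered the basal difference, so an oligo could be chosen through 1 of them. For M103H01, the basal minus upper difference was 2.52 in May at age 5 and 0.45 at age 6. In June it was -0.008 at age 5 and 0.097 at age 6. Nothing is therefore read from the count or from the split by set. The median difference was 0.39 over the basal-higher oligos and -1.20 over the upper-higher oligos, against 0.10 over all oligos. The count of 25 was 14 without isolation a of age 6 and 16 without isolation b of age 5.

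UM43TE12 had 10.47 and 10.46 at age 6, against 8.42 and 8.02 at age 5, a difference of 2.25 ± 0.22 (SE, adjusted p = 2.31e-07, limma). M103H01 had 11.39 and 11.23 at age 6, against 9.57 and 9.57 at age 5, a difference of 1.74 ± 0.20 (SE, adjusted p = 1.16e-06, limma). Both oligos are of the basal-higher set, and their age 6 isolations lay above both age 5 isolations. V031H01 had 6.31 and 6.30 at age 6, against 8.72 and 8.17 at age 5, a difference of -2.14 ± 0.34 (SE, adjusted p = 3.43e-05, limma). R65B04 had 7.62 and 7.55 at age 6, against 10.16 and 9.49 at age 5, a difference of -2.24 ± 0.56 (SE, adjusted p = 0.00466, limma). These 2 oligos are of the upper-higher set and lay lower at age 6 without overlap, though R65B04 was not called without isolation a of age 5, with a difference of -1.90 and an adjusted p of 0.0546 (limma).

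Age 2 was set against age 1 in the same May upper tips, groups that did not enter the basal difference. Of the 52 oligos 18 were called, 12 higher and 6 lower at age 2, where 20.3% of all oligos were called, 10.6% higher and 9.68% lower. Of the upper-higher set 11 were called higher and 0 lower, and of the basal-higher set 6 were called lower and 1 higher. V012F11 had 8.63 and 9.22 at age 2, against 6.97 and 6.39 at age 1, a difference of 2.25 ± 0.33 (SE, adjusted p = 3.62e-05, limma). V031H01 had 7.65 and 7.94 at age 2, against 6.12 and 5.69 at age 1, a difference of 1.89 ± 0.34 (SE, adjusted p = 0.000242, limma). Both belong to the upper-higher set, and neither overlapped between the ages.

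UM43TE12, with the values given above, averaged 9.24 at age 2 and 10.61 at age 1, a difference of -1.36 ± 0.22 (SE, adjusted p = 9.73e-05, limma). M103H01 had 10.43 and 10.66 at age 2, against 11.69 and 11.82 at age 1, a difference of -1.21 ± 0.20 (SE, adjusted p = 9.73e-05, limma). Leaving out any 1 of the 4 isolations left 10 or 11 of the 18 calls, and with the values as deposited the split was 14 higher and 4 lower.

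These 2 age comparisons share no isolation. Of the 52 oligos 15 were called in both, which is 60% of the 25 called for age 6 against 5 and 83.3% of the 18 called for age 2 against 1, and all 15 had opposite signs. Over all 217 oligos 31 were called in both, and all 31 had opposite signs as well. Across the 52 oligos the differences correlated at r = -0.83, and across all 217 at r = -0.75, as a description across oligos, which are not independent replicates. The opposite signs were thus not particular to the 52, and isolations b of ages 2 and 5 each correlated best with the other age, as given above. In May upper tips, group medians of the basal-higher oligos were 8.74 at age 1, 8.52 at age 2, 8.08 at age 5 and 8.49 at age 6. Those of the upper-higher oligos were 8.12 at age 1, 8.79 at age 2, 8.81 at age 5 and 8.10 at age 6, so in this set ages 1 and 6 lay lower than ages 2 and 5, while in the basal-higher set age 5 was the lowest and ages 2 and 6 differed little. In June upper tips, the medians of the basal-higher oligos were 8.80, 8.15, 8.09 and 8.04 at ages 1, 2, 5 and 6, and those of the upper-higher oligos were 8.23, 8.50, 8.85 and 8.86, with age 6 beside age 5.

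June and May were compared within each position. In basal tips of ages 5 and 6, 13 of the 52 oligos were called, 9 higher and 4 lower in June, where 27.6% of all oligos were called, 13.8% in each direction. M125D02 had 10.30, 10.28, 11.69 and 11.89 in June basal tips, against 9.83, 9.73, 9.38 and 8.24 in May, a difference of 1.75 ± 0.25 (SE, adjusted p = 1.67e-05, limma). UB28CPA08 had 6.92, 7.26, 8.31 and 8.17 in June, against 7.28, 5.88, 6.98 and 6.21 in May, a difference of 1.08 ± 0.28 (SE, adjusted p = 0.0059, limma). For both the June tips of age 6 were the highest, and M125D02 did not overlap between months while UB28CPA08 did.

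UM43TE12 had 9.76, 9.86, 10.01 and 9.66 in June basal tips, against 10.60, 10.20, 11.28 and 11.33 in May, a difference of -1.03 ± 0.16 (SE, adjusted p = 3.22e-05, limma). UM65TE06, with the basal values given above, averaged 11.02 in June and 12.05 in May, a difference of -1.03 ± 0.24 (SE, adjusted p = 0.00325, limma). Neither overlapped between months. With arrays centred on their median the split of calls was 6 higher and 7 lower, with the set as a term 4 oligos of the 52 were called, and without isolation a of the June basal tips of age 6 there were 8. Within the 1 set that held isolations of both months, 1 in June and 3 in May, 0 were called. With the set as a term UM43TE12 (adjusted p = 0.0527, limma) and UB28CPA08 (adjusted p = 0.151, limma) lost their calls, while M125D02 (adjusted p = 0.0344, limma) and UM65TE06 (adjusted p = 0.0326, limma) kept theirs.

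In upper tips of ages 1, 2, 5 and 6, 19 of the 52 oligos were called, 7 higher and 12 lower in June, where 35.9% of all oligos were called, 17.1% higher and 18.9% lower. Of the basal-higher set 11 were called lower and 3 higher, and of the upper-higher set 1 was called lower and 4 higher. The upper tips of ages 5 and 6 also set the side of an oligo, and June at age 5 had only 1 isolation. This split is therefore only a description. F098P59Y had 7.68 to 9.21 with a median of 8.10 in 7 June isolations, against 5.65 to 8.34 with a median of 6.65 in 8 May isolations, a difference of 1.43 ± 0.25 (SE, adjusted p = 0.000159, limma). M125D02 had 9.05 to 10.26 with a median of 9.88 in 6 June isolations, since isolation b of age 1 gave no value, against 7.22 to 9.27 with a median of 8.41 in 8 May isolations, a difference of 1.36 ± 0.20 (SE, adjusted p = 2.19e-05, limma). It was thus called higher in June in basal and in upper tips.

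UM43TE12 averaged 8.69 in June upper tips and 9.63 in May upper tips, a difference of -0.94 ± 0.12 (SE, adjusted p = 2.71e-06, limma). G126P33Y had 4.95 to 7.15 with a median of 6.16 in 7 June isolations, against 6.56 to 7.30 with a median of 6.84 in 8 May isolations, a difference of -1.03 ± 0.24 (SE, adjusted p = 0.00215, limma). The isolations of these 4 oligos overlapped between months over the pooled ages. M125D02 overlapped only across ages, but the others overlapped within an age too. At age 2, F098P59Y had 7.71 and 8.04 in June against 8.11 and 7.96 in May, and G126P33Y 7.15 and 6.37 against 7.01 and 6.80. At age 1, UM43TE12 had 10.36 and 10.42 in June against 10.16 and 11.05 in May. No upper isolation of June shared a set with one of May, so month and set cannot be told apart in upper tips, and with the values as deposited the split was 10 higher and 11 lower.

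In lateral vegetative buds of unstated sex, ages 5 and 6 were set against ages 1 and 2. Of the 52 oligos 20 were called, 12 higher and 8 lower in the older buds. Of all oligos 29.5% were called, 15.2% higher and 14.3% lower. Of the basal-higher set 9 were called higher and 3 lower, and of the upper-higher set 3 were called higher and 5 lower. R29F11 had 8.11 and 8.04 at age 5 and 6.07 and 6.31 at age 6, against 4.51, 4.95, 4.66 and 4.22 at ages 1 and 2, a difference of 2.54 ± 0.30 (SE, adjusted p = 6.76e-07, limma). UB18CPG04 had 10.63, 10.68, 10.41 and 10.46 in the older buds, against 8.43 and 8.39 at age 1 and 9.20 and 9.34 at age 2, a difference of 1.71 ± 0.13 (SE, adjusted p = 2.05e-09, limma). Neither overlapped between the older and the younger buds.

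UM93TD04 had 7.38 and 7.04 at age 5 and 8.15 and 8.85 at age 6, against 10.05, 9.23, 9.04 and 9.09 at ages 1 and 2, a difference of -1.50 ± 0.25 (SE, adjusted p = 9.25e-05, limma). F098P59Y had 6.65, 6.43, 6.55 and 6.65 in the older buds, against 6.85, 7.12, 8.27 and 8.68 in the younger, a difference of -1.16 ± 0.34 (SE, adjusted p = 0.0105, limma). These 2 oligos lay lower in the older buds without overlap, F098P59Y mainly against buds of age 2. Within the set that held 7 of these 8 isolations 21 of the chosen oligos were called. Nothing is read from this count, since the share of all oligos called in that fit is not given.

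Floral and vegetative buds of age 6 were compared in male trees, neither group of which entered the rule. The floral buds differed for 15 of the 52 oligos, 3 higher and 12 lower, where 19.8% of all oligos were called, 7.37% higher and 12.4% lower. Differences of the 52 ran from -2.38 to 1.31 with a median of -0.24, against a median of -0.08 over all oligos. Of the basal-higher set 3 were called higher and 8 lower, and of the upper-higher set 0 higher and 4 lower. Without either male floral isolation the count was 9, and with the values as deposited it was 3 higher and 8 lower, with medians of -0.03 over the 52 and 0.145 over all oligos. M112C09 had 10.81 and 10.96 in male floral buds, against 9.98 and 9.75 in male vegetative buds, a difference of 1.02 ± 0.16 (SE, adjusted p = 3.11e-05, limma). F121P83Y had 7.85 and 7.46 in male floral buds, against 7.05 and 6.39 in male vegetative buds, a difference of 0.93 ± 0.33 (SE, adjusted p = 0.0481, limma). Neither overlapped between bud types. When the 4 isolations were left out in turn, F121P83Y kept its call 1 time and lost it 3 times, with a difference of 0.60 when vegetative isolation b was left out and adjusted p up to 0.395 (limma).

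UB18CPG04 had 8.12 and 8.27 in male floral buds, against 10.69 and 10.39 in male vegetative buds, a difference of -2.34 ± 0.19 (SE, adjusted p = 1.83e-09, limma). R29F11 had 4.68 and 4.99 in male floral buds, against 7.15 and 7.28 in male vegetative buds, a difference of -2.38 ± 0.42 (SE, adjusted p = 0.000123, limma). These 2 oligos also showed the largest rises with age in vegetative buds, where R29F11 had 4.22 to 4.95 and UB18CPG04 8.39 to 9.34 at ages 1 and 2. All 4 male isolations lay in 1 hybridisation set, within which 13 of the chosen oligos were called. The share of all oligos called in that fit is not given, so nothing is read from this count.

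In trees of unstated sex, floral buds differed from vegetative buds of age 6 for 11 of the 52 oligos, 1 higher and 10 lower, where 15.7% of all oligos were called, 5.99% higher and 9.68% lower. These vegetative buds are 1 of the 4 bud groups in the rule's bud difference, so the comparison is not wholly independent of it. Differences of the 52 ran from -2.58 to 1.74 with a median of -0.18, against -0.07 over all oligos. With the values as deposited these medians were 0.05 and 0.11. M112C09 had 10.98 and 10.92 in floral buds, against 9.76 and 9.83 in vegetative buds, and the difference was 1.15 ± 0.16 (SE, adjusted p = 7.94e-06, limma). It was thus called higher in floral buds of both kinds of trees. A010P29U had 4.81 and 4.72 in floral buds, against 7.30 and 7.40 in vegetative buds, and the difference was -2.58 ± 0.43 (SE, adjusted p = 8.49e-05, limma). A069P31U had 5.58 and 5.47 in floral buds, against 7.37 and 7.90 in vegetative buds, which is a difference of -2.11 ± 0.33 (SE, adjusted p = 4.24e-05, limma). Both lay lower in floral buds by more than their isolations differed, and in male trees A010P29U had 6.35 and 5.38 in floral buds against 7.79 and 7.75 in vegetative buds, and A069P31U had 5.91 and 4.98 in floral buds against 7.82 and 7.65 in vegetative buds. With the values as deposited 7 of the 52 were called, 2 higher and 5 lower, and without 1 isolation 6 to 10 were called, with 6 without vegetative isolation a and 7 without floral isolation a.

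Male vegetative buds of age 6 differed from those of unstated sex for 2 of the 52 oligos, both higher, where 2.3% of all oligos were called, all higher. V002G11 had 12.82 and 13.03 in male buds, against 11.80 and 11.71 in the others, a difference of 1.17 ± 0.21 (SE, adjusted p = 0.00199, limma). V009G10 had 9.99 and 10.15 in male buds, against 9.05 and 9.29 in the others, a difference of 0.90 ± 0.22 (SE, adjusted p = 0.0255, limma). Neither overlapped. The count was 0 with the values as deposited, with arrays centred on their median and with only these groups in the fit. It was also 0 within the shared set and without isolation b of the male buds. With wells as separate arrays it was 7. An unadjusted p under 0.05 in limma was held by 14 of the 52 oligos and by 51 of all 217.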

How the data were processed

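The authors deposited 1 table with a value for each of 217 oligos on 74 arrays. Its values, between 1.10 and 16.25, were read as log2 intensities from their range, since the log base of the deposited values is not stated. Per the labels, RNA was labelled with Cy5 only, and each isolation was hybridised to 2 wells. For the scanner, background correction and earlier normalization, the sources used here give nothing. Signal over background cannot be judged, and the number of arrays limits the precision.

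Array medians ran from 8.05 to 8.79, so arrays were quantile-normalized. Duplicate wells, with a median correlation of 0.966, were averaged, and missing values (1.35%) stayed missing. In limma 3.58.1 (R 4.3.3), a model with 19 group means was fitted to 37 isolations with 18 residual degrees of freedom, and p-values were adjusted over all 217 oligos. The fit was tested on simulated data.

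The oligos, the comparisons and the rule for naming were chosen with earlier results of these data known. Each tested comparison names up to 2 called oligos with the largest rises and 2 with the largest falls; the basal difference names 2 on either side and those nearest the limits. Isolation letters did not pair samples: over 153 pairs of groups, same-letter deviations correlated between -0.266 and 0.296, and 34 pairs exceeded 0.1. Alternatives were the deposited and median-centred values, separate wells, smaller fits, a filter on dim oligos, letter or hybridisation set as a term, fits within a set, and leaving out each isolation.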

Additional observations from a re-analysis of the deposited data

Results flagged for a closer look

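The position difference, basal minus upper tips at ages 5 and 6, was tested for a change between groups (limma, adjusted p under 0.05). Between June and May 15 of the 52 oligos were called, where 24.4% of all oligos were called. Between ages 6 and 5 there were 13, where 13.4% of all oligos were called. An oligo could be chosen through 1 month or 1 age, so nothing is read from these counts. Between June and May the change was 1.70 for C036P25U, 1.36 for F093P10Y, -2.43 for F098P59Y and -1.90 for UM65TE06. Between ages 6 and 5 it was 2.56 for R29F11, 1.82 for V012F11, -3.19 for A003P34U and -1.52 for UM93TD04. June basal tips shared their hybridisation set mostly with vegetative buds, and June upper tips shared theirs with most May basal tips. With the set as a term, 4 oligos were called for the month and 9 for age, instead of 15 and 13. The month change was then 1.60 for C036P25U, 1.29 for F093P10Y, -3.26 for F098P59Y and -1.72 for UM65TE06. The part of the sets in these changes was not tested. The age 5 value in June rests on a single upper isolation.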

How the results depend on the processing

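No named result changed sign under the alternatives run. With values as deposited, floral against vegetative buds of unstated sex gave 7 calls instead of 11, and male against other vegetative buds 0 instead of 2. With arrays centred on their median these counts were 6 and 0, and with only the groups compared in the fit 6 and 0, with 0 instead of 6 for age in basal tips. Scaling moved the median of all oligos in male floral against vegetative buds to 0.145 as deposited, against -0.08 as reported. Wells as separate arrays gave 7 calls, and leaving out the dimmest 25% of oligos 5, for male against other vegetative buds. That filter removed R29F11, V031H01, G126P33Y and UB28CPA08. The other 32 of 41 named values kept their calls under it. The hybridisation set as a term left 4 of 13 calls for June against May in basal tips, 4 of 15 for the change of the position difference with month, 2 of 6 for age in basal tips and 7 of 11 for floral buds of unstated sex. It could not be fitted for June against May in upper tips. Within 1 set, June against May in basal tips and male against other vegetative buds each gave 0. Causes were not tested.

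Leaving out 1 isolation at a time gave 8 to 13 calls for June against May in basal tips, 2 to 9 for age in basal tips, 9 to 12 for male floral buds, 6 to 10 for floral buds of unstated sex, and 0 to 2 for male against other vegetative buds. In May upper tips it gave 14 to 21 for ages 6 and 5 and 10 to 11 for ages 2 and 1. The lowest counts came without isolation a of June basal tips of age 6 (8), isolation b of May basal tips of age 6 (2), either male floral isolation (9), isolation a of vegetative buds of age 6 (6), isolation b of male vegetative buds (0) and isolation a of May upper tips of age 6 (14); counts were also lower without isolation b of May upper tips of age 5 (16), isolation a of floral buds (7), and isolation b of June basal tips of age 5 or isolation a of those of age 6 (3 each for age). Of 343 values of named oligos 20 lost their call. With the isolation letter as a replicate block, which does not pair these samples, the counts in the order of the tests were 13, 18, 15, 12, 6, 20, 15, 11, 2, 25 and 18, and 41 of 41 named values kept their call. The rule gave 46 oligos as deposited, 48 centred, 44 with a basal limit of 0.5, 38 with a bud limit of 0.6 and 45 to 57 without 1 isolation.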

Other observations

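V001E09 and V063C08, both of the basal-higher set and chosen after their values were seen, had isolations far from the rest. V001E09 had 9.81 in isolation a of the vegetative buds of age 6 and 14.26 in isolation b, and 14.26 is the highest value that quantile normalization gives, reached by V001E09 in several other isolations too. Its basal difference was 0.88 ± 0.39 (SE). V063C08 had 7.12 and 7.72 in vegetative buds of age 2, against 10.52 to 11.25 in the vegetative buds of the other ages.

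By the prefix of the clone name, the 52 oligos were 9 of 40 with V, 9 of 30 with F, 8 of 24 with UM, 7 of 30 with R and 5 of 17 with M. The prefixes A, C, G and UB gave 3 each of 8, 6, 6 and 11, B gave 1 of 3 and UA 1 of 5, and AF and I gave 0 of 1 and 0 of 2. What the prefixes stand for is not given in the sources used here.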
